A study of Mus musculus with 16 samples.

Results

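The genes described here are 7 markers of osteoblasts and osteocytes, the bone-forming cells and the cells embedded in bone, chosen by name: Sp7, Runx2, Alpl, Ibsp, Bglap, Dmp1 and Phex. Of these 7 genes, 6 were found among the 13733 genes listed in the bulk RNA-seq table of mouse knee joint cells. Bglap was not analysed here, and its near-identical copy Bglap2 is shown in its place without being counted as a member. All 6 genes passed the filter on low values and were among the 13173 genes tested.

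The experiment comprised 16 libraries, from WT and Trem2-/- mice at D0 and at D7, with 4 mice in each of these 4 groups. WT mice were male C57BL/6J. Trem2-/- mice carried the Trem2em2Adiuj allele on the same background, a knockout present in every cell of the body, so an effect cannot be assigned to one cell type. D0 joints were uninjured, and D7 joints were taken 7 days after rupture of the anterior cruciate ligament by a single compressive overload of the tibia at 10 weeks of age. One field of the sample labels instead describes homogenized whole joints of mice aged 16 weeks in a diabetes design, whereas genotype and day are the same in both descriptions. The study describes enzymatically released joint cells, and whether leukocytes were enriched in these libraries is not stated. The replicate numbers do not say more about the animals, so p-values measure the spread between these samples.

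Osteoblasts arise from mesenchymal progenitors under the transcription factors Runx2 and, downstream of it, Sp7 (osterix). Committed cells make the phosphatase Alpl, then secrete collagen and matrix proteins such as Ibsp (bone sialoprotein) and osteocalcin, the product of Bglap. Some become osteocytes, which express Dmp1, a matrix phosphoprotein needed for mineralization, and Phex, a membrane peptidase of phosphate regulation. Injury of the knee commonly leads to bone remodelling and to osteophytes, outgrowths that form through a cartilage template. None of these genes is exclusive to bone cells, since hypertrophic chondrocytes also express Runx2, Sp7, Alpl and Ibsp, and Alpl is expressed by other cells of the marrow.

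Osteocalcin is encoded in the mouse by a cluster of copies on chromosome 3, all on the minus strand in GRCm38, the mm10 build. Bglap lies at 3:88383501-88384464, Bglap2 at 3:88377736-88378699 and Bglap3 at 3:88368616-88372743. The coding sequences of Bglap2 and Bglap, taken from GENCODE M21, are shown because they decide how far a read can be assigned to one copy, with the differing bases in capitals:
Bglap2: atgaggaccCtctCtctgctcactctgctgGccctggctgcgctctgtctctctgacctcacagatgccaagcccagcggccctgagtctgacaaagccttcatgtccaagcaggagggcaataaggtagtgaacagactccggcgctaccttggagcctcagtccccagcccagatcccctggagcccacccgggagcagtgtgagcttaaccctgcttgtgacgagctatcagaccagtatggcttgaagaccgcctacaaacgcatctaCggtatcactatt
Bglap: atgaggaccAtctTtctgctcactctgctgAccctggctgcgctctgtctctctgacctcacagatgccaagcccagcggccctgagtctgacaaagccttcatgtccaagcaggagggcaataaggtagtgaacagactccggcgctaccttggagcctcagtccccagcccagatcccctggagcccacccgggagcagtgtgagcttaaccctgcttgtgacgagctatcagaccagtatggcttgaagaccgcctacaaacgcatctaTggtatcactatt
Over these 285 bases the 2 copies differed at 4 positions, an identity of 98.6%. Over the whole Bglap2 transcript, 73.3% of all stretches of 75 bases also occurred in another gene, 61.0% in Bglap and 15.1% in Bglap3. The Bglap2 values below are therefore uncertain, because the counting could have split reads among the copies. Of the other members, Runx2 shared 5.87% of its exonic bases with the antisense transcript Runx2os1. Sp7, Alpl, Ibsp and Dmp1 overlapped no other annotated exon.

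Dmp1 (5:104202613-104214102) and Ibsp (5:104299171-104311469) are neighbours on the plus strand of chromosome 5. The start of Ibsp lies 85069 bases after the end of Dmp1. Both belong to a cluster of genes for acidic phosphoproteins of mineralized tissue. The bases before the start of each are shown because these neighbours had the largest rises among the members. The sequences are from RefSeq on GRCm38.p6 (5:104202367-104202612 and 5:104299037-104299170, plus strand), end just before the GENCODE start, and mark in capitals the core of the Runx motif, TGTGGT or its reverse ACCACA:
Dmp1 promoter: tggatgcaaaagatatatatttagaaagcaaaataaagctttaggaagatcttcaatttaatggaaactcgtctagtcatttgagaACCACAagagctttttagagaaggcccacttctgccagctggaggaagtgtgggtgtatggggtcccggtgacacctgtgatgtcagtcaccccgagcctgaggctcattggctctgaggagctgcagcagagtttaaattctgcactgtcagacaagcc
Ibsp promoter: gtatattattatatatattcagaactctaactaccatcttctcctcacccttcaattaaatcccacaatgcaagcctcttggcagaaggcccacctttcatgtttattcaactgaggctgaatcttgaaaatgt
In the windows of 250 bases before the RefSeq starts, Dmp1 had 1 match, within the bases shown and beginning at base -164. These windows run on past the bases shown, to 5:104202616 for Dmp1 and 5:104299286 for Ibsp. A second Dmp1 window (5:104197325-104197574) had 0 matches, as had that of Ibsp. Runx2 itself had 1 match, beginning at base -80, and Bglap had 1, beginning at base -132, whereas Alpl and Phex had 0. Of 32851 promoter windows, 14.0% held at least 1 match on either strand. The match was thus present before a gene that rose (Dmp1) and before one that was not called (Runx2). The table used holds no window for Sp7 or Bglap2.

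Each library held between 11567073 and 32867818 reads on listed genes (median 16399898), and 3 reads corresponded to between 0.101 and 0.25 CPM. CPM are reads per gene relative to the size of the library, which the authors scaled with edgeR's TMM factors. Trem2, the targeted gene, measured 10.7 to 22.5 CPM at WT D7 and 3.42 to 4.84 CPM at Trem2-/- D7, without overlap. At D0 it was low in both genotypes, with 2.51 to 5.61 CPM in WT and 0.948 to 2.68 CPM in Trem2-/- mice, which overlapped. Defining chondrocyte and synovial fibroblast genes were detected in every library. The osteocyte genes Sost, Mepe, Fgf23 and Dkk1 were not among the genes listed. The osteocyte side therefore rests on the members Dmp1 and Phex and on 4 other genes of an osteocyte list.

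Levels among the members differed widely when compared per kb of exonic sequence. At WT D0, Ibsp had the highest level with 148 ± 130 CPM per kb (SD, n = 4), followed by Alpl with 24.4 ± 10.8 and Runx2 with 6.17 ± 0.94 CPM per kb. Dmp1 (1.93 ± 1.75), Sp7 (0.941 ± 0.442) and Phex (0.843 ± 0.406) were lowest and overlapped each other. Ibsp ranged from 33.0 to 330.4 CPM per kb at WT D0 and Alpl from 8.77 to 32.8, so these neighbours in the order just failed to overlap. At WT D7, Ibsp reached 625 ± 257 CPM per kb and Alpl 46.7 ± 19.1, and Dmp1 (8.65 ± 4.41) now overlapped Runx2 (7.08 ± 1.79). At Trem2-/- D7 the order was the same, from Ibsp at 467 ± 216 through Alpl (32.9 ± 13.4), Dmp1 (6.66 ± 3.02), Runx2 (5.74 ± 0.67) and Sp7 (2.43 ± 0.59) to Phex at 0.821 ± 0.398 CPM per kb, and Dmp1 again overlapped Runx2 and also Sp7. The 3 highest members at Trem2-/- D0 were Ibsp (52.3 ± 33.3), Alpl (12.2 ± 3.8) and Runx2 (5.90 ± 0.75), and the others were below 1.04 CPM per kb in each mouse. Bglap2 measured 62.5 ± 33.7 CPM per kb at WT D0 and 23.4 ± 12.3 at Trem2-/- D0, between Ibsp and Alpl, and overlapped both of them in each of these groups.

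The first comparison asked how the bone-forming genes responded to injury in WT joints. By 7 days Sp7, Alpl, Ibsp and Dmp1 had risen, whereas Runx2 and Phex were not called. Calls followed the study's rule, a limma p-value below 0.05 before adjustment together with a difference of more than 25% of the lower group, on the log2(CPM + 1) scale. Of the 6 members, 4 were called higher, against 19.3% of all genes tested. With the Benjamini-Hochberg adjustment 3 members passed, against 15.9% of all genes, and 2 members had no overlap between D7 and D0, against 12.9% of all genes. The median log2 fold change was 1.32 over the 6 members and -0.04 over all genes.

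Among the transcription factors, Sp7 measured 2.93, 1.34, 3.56 and 4.96 CPM in the 4 WT D0 mice and 14.4, 7.99, 7.96 and 18.1 CPM in the WT D7 mice. Every injured WT joint was above every uninjured one. The log2 fold change was 1.64 ± 0.33 (SE), a 3.12-fold change, with a limma adjusted p of 0.0033. An exact permutation test of the log2(CPM + 1) values gave p = 0.0286, the smallest p that 4 against 4 mice allow. Runx2, the factor above Sp7, measured 43.5, 53.4, 58.0 and 63.0 CPM at WT D0 and 62.0, 47.1, 56.8 and 84.3 CPM at WT D7. The 2 groups overlapped, and the log2 fold change of 0.18 had a 95% interval from -0.17 to 0.52 (limma adjusted p = 0.415).

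The phosphatase Alpl measured 132, 35.4, 105 and 121 CPM at WT D0 and 194, 113, 154 and 293 CPM at WT D7. The WT D7 mouse with the lowest value was below 2 of the WT D0 mice, so the groups overlapped. Alpl was called with a log2 fold change of 1.00 ± 0.41 (limma adjusted p = 0.0769), and the exact permutation test of the log2(CPM + 1) values gave p = 0.0857. The call was lost without WT D0 replicate 2 (log2 fold change 0.57), without WT D7 replicate 1 (0.96) and without WT D7 replicate 4 (0.76).

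Ibsp, the most abundant member, measured 301, 68.2, 173 and 683 CPM at WT D0 and 1181, 712, 1279 and 1997 CPM at WT D7. The groups did not overlap, although the highest uninjured mouse came close to the lowest injured one. Its log2 fold change of 2.44 ± 0.59, or 5.43-fold, had a limma adjusted p of 0.0087. The osteocyte gene Dmp1 rose from 2.99, 0.669, 5.85 and 11.9 CPM to 36.4, 17.0, 10.5 and 31.8 CPM, with a log2 fold change of 2.19 ± 0.53 (limma adjusted p = 0.0085). Which of Ibsp and Dmp1 rose more depended on the scale, since with a pseudocount of 0.1 Dmp1 had 2.57 and Ibsp 2.45. The WT D0 mouse at 11.9 CPM was above the WT D7 mouse at 10.5 CPM, and the exact permutation test of the log2(CPM + 1) values gave p = 0.0571. Phex, in contrast, measured 7.89, 2.58, 3.72 and 7.03 CPM at WT D0 and 15.3, 4.08, 6.55 and 4.57 CPM at WT D7. Only replicate 1 of the WT D7 mice was above all WT D0 mice, and the log2 fold change of 0.38 had an interval from -0.69 to 1.45 (limma adjusted p = 0.587).

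**Figure D1:**
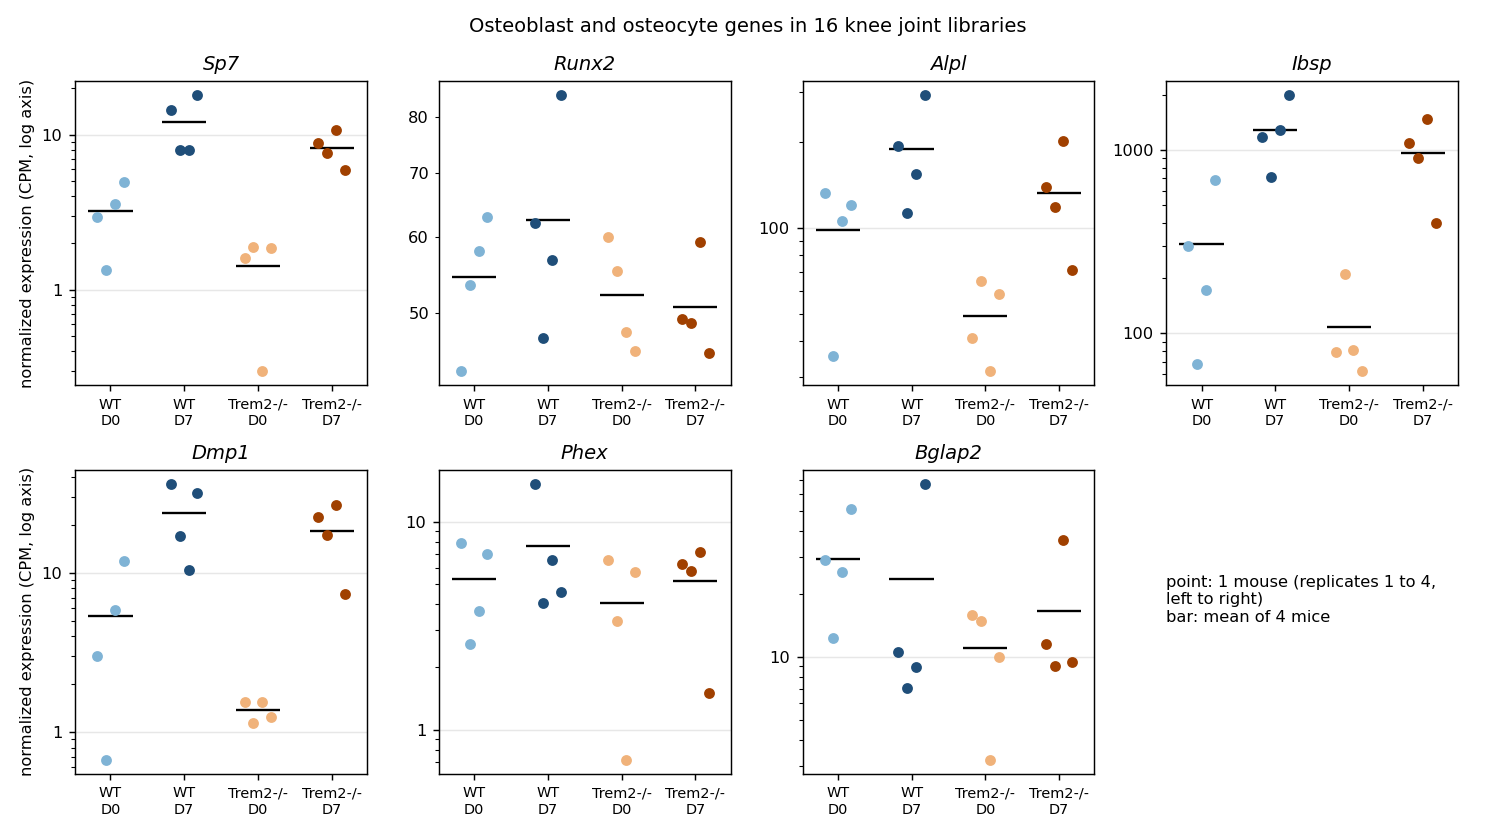
CPM of each gene on a log axis (ranges differ between panels) in the 4 groups, with a point for each mouse in the order of replicates 1 to 4 and a bar for the mean. Sp7 and Ibsp at D7 lie above all D0 values of the same genotype, Runx2 stays between 43.5 and 84.3 CPM, and Bglap2 has 1 high mouse in each D7 group.

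The same comparison in Trem2-/- mice showed the same 4 genes called higher. Sp7, Alpl, Ibsp and Dmp1 rose, all 4 passed the adjusted threshold and all 4 had no overlap between D7 and D0. The background was larger here, with 26.5% of all genes called higher, 26.0% passing the adjusted threshold in that direction and 26.1% higher without overlap. The median log2 fold change was 1.68 over the 6 members, against -0.04 over all genes.

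Sp7 measured 1.61, 1.90, 0.298 and 1.85 CPM in the Trem2-/- D0 mice and 8.84, 7.58, 10.6 and 5.92 CPM in the Trem2-/- D7 mice. The injured joints were all well above the highest uninjured one, with a log2 fold change of 1.98 ± 0.33 (limma adjusted p = 0.0002). Alpl measured 41.1, 64.9, 31.4 and 58.6 CPM at D0 and 139, 118, 202 and 70.9 CPM at D7. The lowest injured joint was just above the highest uninjured one, and the log2 fold change was 1.38 ± 0.41 (limma adjusted p = 0.0110).

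Ibsp rose from 78.7, 211, 80.9 and 62.2 CPM to 1085, 906, 1476 and 401 CPM, a log2 fold change of 3.18 ± 0.59 or 9.05-fold (limma adjusted p = 0.0005). Dmp1 was near 1 CPM in the uninjured Trem2-/- joints, at 1.55, 1.14, 1.55 and 1.24 CPM, and reached 22.4, 17.2, 26.7 and 7.34 CPM at D7. Both genes were higher in each injured joint than in any uninjured one, and the log2 fold change of Dmp1 was 2.91 ± 0.53 (limma adjusted p = 0.0004). Runx2 measured 60.0, 55.3, 47.8 and 45.6 CPM at D0 and 49.4, 48.8, 59.2 and 45.5 CPM at D7, with a log2 fold change of -0.04 and an interval from -0.38 to 0.30. Phex measured 6.52, 3.35, 0.716 and 5.72 CPM at D0 and 6.25, 5.79, 7.11 and 1.5 CPM at D7, with a log2 fold change of 0.35 and an interval from -0.72 to 1.42. The groups overlapped for both genes, and neither was called.

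Bglap2 was called in neither injury comparison, unlike the matrix genes Ibsp and Dmp1. It measured 29.2, 12.3, 25.6 and 50.6 CPM at WT D0 and 10.6, 7.08, 8.93 and 67.3 CPM at WT D7, so 3 injured WT mice were below every uninjured WT mouse and the fourth was above them all. In Trem2-/- mice it measured 15.9, 14.9, 3.22 and 9.96 CPM at D0 and 11.6, 9.03, 36.0 and 9.42 CPM at D7, again with 1 high injured mouse. The log2 fold changes of -0.78 in WT (interval -2.17 to 0.61) and 0.49 in Trem2-/- mice (interval -0.90 to 1.88) were not called. Without WT D7 replicate 4 the WT change was -1.48 and was called (limma adjusted p = 0.0661).

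Whether the response differed with genotype was tested as the interaction. By limma 0 of the 6 members were called, against 7.79% of all genes tested, and by edgeR also 0. Of the 13173 genes, 0 passed the adjusted threshold with either tool. The differences in log2 fold change, Trem2-/- minus WT, were 0.34 for Sp7 (interval -0.65 to 1.33), 0.37 for Alpl (-0.86 to 1.61), 0.74 for Ibsp (-1.04 to 2.52) and 0.72 for Dmp1 (-0.87 to 2.31). These intervals are wide enough to hold a response several fold larger in Trem2-/- mice as well as a smaller one. Runx2 (-0.22, interval -0.70 to 0.27) and Phex (-0.03, interval -1.55 to 1.49) gave no difference past the threshold either.

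At D7 the genotypes were compared directly. By limma 0 members were called, against 5.72% of all genes called in either direction, and by edgeR also 0. Of the genes called in that comparison 20.7% were higher in Trem2-/- mice, or 33.3% after quantile normalization. All 6 members had negative log2 fold changes, from -0.51 for Alpl to -0.27 for Runx2, with a median of -0.45 against 0.01 over all genes. The intervals were -1.15 to 0.25 for Sp7, -1.39 to 0.36 for Alpl, -1.73 to 0.79 for Ibsp and -1.46 to 0.78 for Dmp1. Without WT D7 replicate 2, Runx2 was called lower in Trem2-/- mice (-0.40, limma adjusted p = 0.383), and without a library the Dmp1 value reached 0.02.

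At D0, Sp7 and Alpl were lower in Trem2-/- joints. These were 2 of 6 members called lower, against 1.37% of all genes. With adjustment 0 members passed (limma adjusted p = 0.9996 for each), as did 0 genes of the whole table with limma and with edgeR. The log2 fold change was -0.79 ± 0.33 for Sp7 (exact permutation p = 0.114 on the log2(CPM + 1) values) and -0.89 ± 0.41 for Alpl (exact permutation p = 0.143). The groups overlapped for both genes, because WT D0 replicate 2 lay inside the Trem2-/- range. The values of the others were -1.21 for Ibsp (interval -2.47 to 0.05), -1.06 for Dmp1 (-2.18 to 0.06), -0.42 for Phex (-1.49 to 0.65) and -0.06 for Runx2 (-0.40 to 0.29), and the median over the members was -0.84. For Bglap2 it was -1.37 (interval -2.75 to 0.02).

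The D0 calls depended on single mice. The count of members called lower was 0 without WT D0 replicate 3, WT D0 replicate 4 or Trem2-/- D0 replicate 3, and 4 without WT D0 replicate 2. In that last fit 6.71% of all genes were called lower, more than with all mice. The count was 1 without WT D0 replicate 1, WT D7 replicate 1 or 3, Trem2-/- D0 replicate 1 or Trem2-/- D7 replicate 1 or 2. It was 0 when only the D0 groups entered the fit (0.562% of all genes called lower), 1 with the replicate block (1.38%) and 4 with edgeR on the recovered reads (2.71%). The D0 mice are shared by this comparison and by the injury comparisons of the same genotype, so a low D0 level in Trem2-/- mice enters both.

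**Figure D2:**
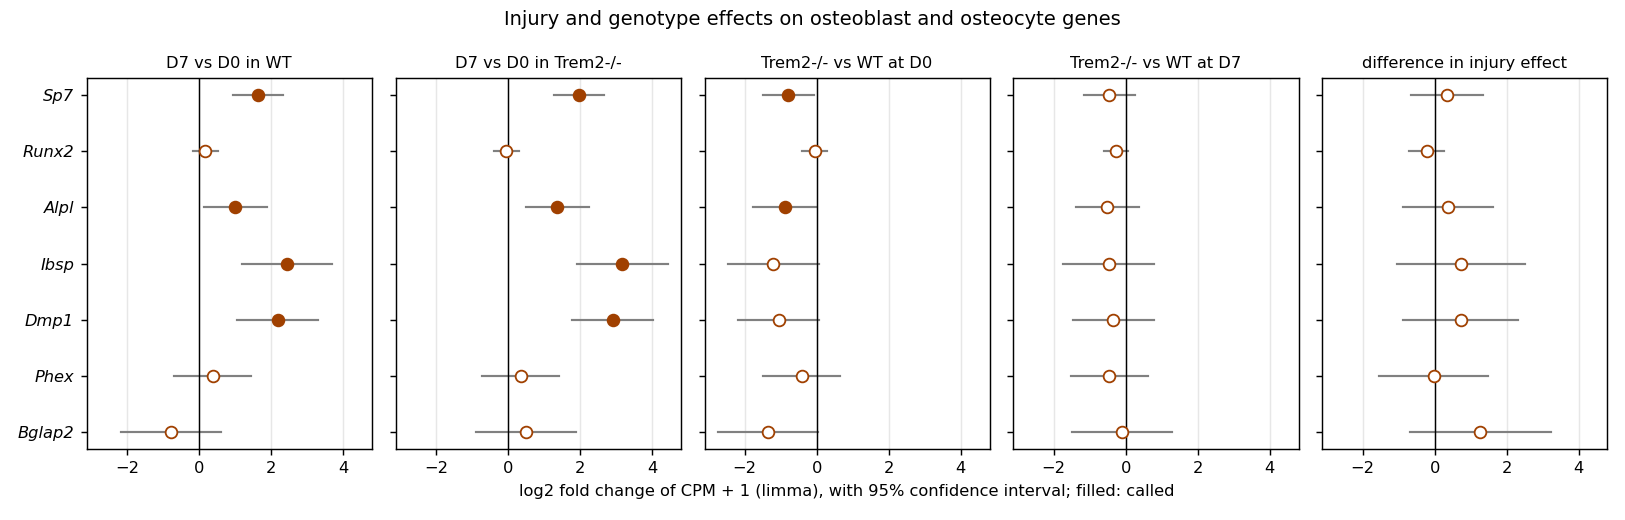
Log2 fold change of CPM + 1 from limma with its 95% confidence interval for each gene in the 4 group comparisons and for the difference in injury effect (Trem2-/- minus WT), with filled points for genes called. Sp7, Alpl, Ibsp and Dmp1 are filled in both injury comparisons, Sp7 and Alpl also at D0, and no point is filled at D7 or for the difference.

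The mice within a group tended to hold the same place across members. Trem2-/- D7 replicate 3 was the highest and replicate 4 the lowest of its group for 6 of 6 members. At WT D7, replicate 4 was highest for 4 members and replicate 2 lowest for 4. At WT D0, replicate 4 was highest for 4 and replicate 2 lowest for 5 members. At Trem2-/- D0 no mouse was highest for more than 3 members.

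After subtraction of the group means of log2(CPM + 1), the deviations over the 16 libraries had a Pearson's r of 0.87 for Sp7 and Alpl, 0.82 for Alpl and Ibsp, 0.75 for Sp7 and Dmp1 and 0.72 for Ibsp and Dmp1. Runx2 and Phex had the weakest relation, with r = 0.18. These correlations are descriptions over libraries that share their depth and cell composition. Bglap2 followed Sp7 within groups (r = 0.85 for the deviations), whereas over all 16 libraries r was 0.38. The collagenase gene Mmp13, singled out after its values were seen, followed Bglap2 more closely, with r = 0.94 for the deviations and 0.90 over all libraries. Mmp13 measured 985.7 CPM in WT D7 replicate 4, against 68.3 to 162 CPM in the other WT D7 mice, and 707 CPM in Trem2-/- D7 replicate 3, against 160 to 188 CPM in the others. These are the same 2 injured mice in which Bglap2 was high. Among uninjured mice, WT D0 replicate 4 had Mmp13 at 1059 CPM, against 165 to 317 CPM in the other WT D0 mice. Its Bglap2 value, 50.6 CPM, was also the highest of that group.

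The genes whose pattern was most like the mean of the members were ranked among 12838 genes that averaged 1 CPM or more. Slc8a3, a sodium and calcium exchanger, came first (r = 0.97 over 16 libraries), followed by Phtf2 (0.97), Sim2 (0.97), the actin-severing protein Scin (0.96) and Pth1r, the receptor of parathyroid hormone (0.96). For the deviations from group means the leading genes were Hrasls (r = 0.94), Phtf2 (0.93), Slc37a3 (0.92), Sim2 (0.91) and Slc8a3 (0.91). Phtf2, Sim2 and Slc8a3 were in both lists.

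Other genes of bone formation were taken from 5 lists of 39 genes, of which 33 were listed and 32 tested. In WT joints 17 were called higher and 0 lower after injury (median log2 fold change 0.79), where 19.3% of all genes were called higher. In Trem2-/- joints 25 were called higher and 2 lower (median 1.21), where 26.5% of all genes were called higher. The median over all genes was -0.04 in both comparisons. The 2 that fell were Ifitm5 (-0.96), an osteoblast membrane protein, and Phospho1 (-0.69), a phosphatase that starts mineralization.

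Among 5 transcription factors tested, 2 rose in WT and 4 in Trem2-/- joints, with Dlx3 rising the most (log2 fold change 1.60 and 1.83, in this order). Of 9 matrix genes, 5 rose in WT and 7 in Trem2-/- joints, led by the collagen gene Col1a1 (2.85 and 4.45). Col3a1, a collagen gene of the synovial fibroblast list, rose about as much (2.85 and 4.40), so the rise of Col1a1 is not particular to genes of bone. Of 7 mineralization genes, 4 and 6 rose. The sphingomyelinase gene Smpd3 rose the most in WT (2.87), and Enpp1, which makes pyrophosphate, rose the most in Trem2-/- joints (3.80). Of the 4 genes found of the osteocyte list, 2 and 3 rose, led by Irx5 (1.45 and 1.60). With adjustment 1 and 2 of them passed as higher. The lowest log2 fold change in this list was -0.68 in WT and -0.32 in Trem2-/- joints, with 0 genes called lower. Irx5 was low at D0, with a mean of 1.13 CPM in WT and 0.723 CPM in Trem2-/- joints. Of 7 signaling genes, 4 and 5 rose, led by Pth1r (2.28 and 3.18).

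At D7, 1 of the 32 genes was called between the genotypes, Ifitm5 (-0.60), which is no more than the 5.72% of all genes called. Ifitm5 was low, with a mean of 1.71 CPM at WT D7 and 0.785 CPM at Trem2-/- D7. The count was 0 without Trem2-/- D7 replicate 2, with a pseudocount of 5 and with a mean of at least 5 CPM. It was 2 without WT D0 replicate 4, without Trem2-/- D7 replicate 3 and with voom, and 3 with only the groups compared. At D0, 4 of the 32 genes were called lower in Trem2-/- joints, against 1.37% of all genes: Dlx5 (-0.99), Col1a1 (-1.27), Pth1r (-1.19) and Tnfsf11 (-1.22), which encodes the osteoclast-inducing ligand RANKL. This count also depended on single mice and on the tool. Counted in either direction, it was 17 without WT D0 replicate 2, where 6.71% of all genes were called lower. It was 8 without Trem2-/- D0 replicate 1 and 2 without Trem2-/- D0 replicate 4. Without WT D0 replicate 4 or Trem2-/- D0 replicate 3 it was 1. With edgeR it was 11, where 2.71% of all genes were called lower. The interaction was called for 3 of the 32 genes, near the share of 7.79% over all genes, and these were Tnfsf11 (2.15), Cbfb (0.33), the partner of Runx2, and Ifitm5 (-0.83). The interaction count rose to 10 without WT D0 replicate 2, to 5 without WT D7 replicate 4 and to 6 with edgeR. Over all genes, limma on all mice called 365 interactions above 0 and 661 below. These became 1168 and 1065 without WT D0 replicate 2, and 441 and 785 with edgeR. None of these genotype or interaction calls passed the adjusted threshold in limma.

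**Figure D3:**
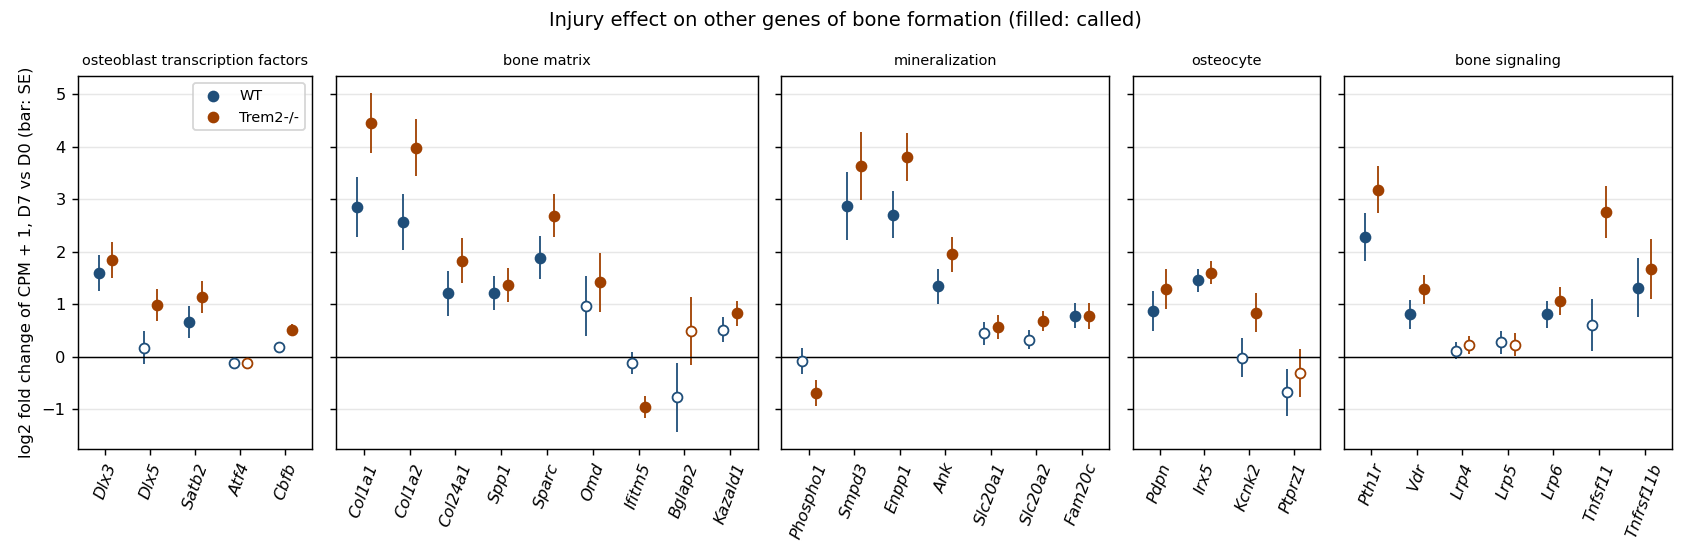
Log2 fold change of CPM + 1 at D7 against D0 (bar, SE) for the 32 tested genes of the 5 lists, in WT (blue) and Trem2-/- (orange) joints, with filled points for genes called. Filled points above 0 outnumber those below in each list, and Ifitm5 and Phospho1 in Trem2-/- joints are the filled points below 0.

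Markers of other cells moved together with these genes, and a change in the number of cells of a type cannot be told apart from a change in RNA per cell in bulk libraries. Of 8 chondrocyte genes, 8 rose with injury in WT joints (median log2 fold change 3.56) and 8 in Trem2-/- joints (4.89). Their summed level went from 784 to 13707 CPM at WT D0 to 30780 to 77102 CPM at WT D7, and from 1100 to 4116 CPM at Trem2-/- D0 to 29334 to 44786 CPM at Trem2-/- D7. Both medians stood above those of the members, 1.32 and 1.68. Of 4 hypertrophic chondrocyte genes, which overlap in cell type with Ibsp, Alpl and Sp7, 3 rose in WT and 4 in Trem2-/- joints. Their sum was 172 to 1363 CPM at WT D0, 786 to 2057 CPM at WT D7, 79.1 to 162 CPM at Trem2-/- D0 and 562 to 2171 CPM at Trem2-/- D7. Panx3 was at 0 in 1 of the Trem2-/- D0 libraries, and no other marker of any list was at 0 in a library.

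Genes of blood and marrow cells fell. All 6 leukocyte genes were called lower at D7 in both genotypes. Their sum was 2678 to 5222 CPM at WT D0 and 1514 to 3335 CPM at WT D7, and 3322 to 5728 CPM at Trem2-/- D0 and 1197 to 1501 CPM at Trem2-/- D7. All 7 neutrophil genes were lower in both genotypes, with sums of 13707 to 31670 and 4378 to 13424 CPM at WT D0 and D7, and of 13975 to 42208 and 4131 to 6939 CPM at Trem2-/- D0 and D7. All 7 B lineage genes were lower too, from 125 to 351 CPM to 46.6 to 100.7 CPM in WT and from 145 to 228 CPM to 29.1 to 43.2 CPM in Trem2-/- joints. All 4 erythroid genes found were lower, from 1359 to 2210 CPM to 409 to 1476 CPM in WT and from 992 to 2131 CPM to 336 to 821 CPM in Trem2-/- joints. Since CPM are shares of a library, a fall of some transcripts and a rise of others can be linked. The size of such a link was not tested.

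Of 6 synovial fibroblast genes, 3 rose and 1 fell in WT and 4 rose and 1 fell in Trem2-/- joints. Of 8 osteoclast genes, 4 rose and 1 fell in WT and 6 rose and 2 fell in Trem2-/- joints. Of 4 marrow stroma genes, 1 fell in WT and 0 changed in Trem2-/- joints, and of 6 skeletal muscle genes, 1 and 4 fell. The summed level was 3640 to 19697, 31878 to 46211, 4323 to 12158 and 42329 to 52474 CPM for synovial fibroblast genes, in WT at D0 and D7 and then in Trem2-/- joints at D0 and D7. In the same order it was 910 to 1246, 811 to 1161, 770 to 1650 and 902 to 1246 CPM for osteoclast genes. It was 543 to 1290, 590 to 744, 601 to 935 and 657 to 868 CPM for marrow stroma genes, and 157 to 593, 115 to 292, 272 to 746 and 118 to 188 CPM for skeletal muscle genes. The part of these cell types in the changes of the members was not tested.

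At D0, where Sp7 and Alpl were lower in Trem2-/- joints, 5 of 8 chondrocyte and 2 of 4 hypertrophic chondrocyte genes were called lower too. The share over all genes was 1.37%, and 0 genes of the whole table passed the adjusted threshold in limma. Over all genes 882 were called lower without WT D0 replicate 2 and 60 without WT D0 replicate 4, against 180 with all mice. Of the other lists, 2 of 8 osteoclast genes and 2 of 7 B lineage genes were also lower, and 0 genes of the leukocyte, neutrophil, erythroid, marrow stroma and skeletal muscle lists were called. Of 6 synovial fibroblast genes, 1 was higher. The WT D0 mouse with low members, replicate 2, had the lowest chondrocyte sum of all mice (784 CPM), and replicate 4, with high members, had the highest of its group (13707 CPM). At D7, 0 of 8 chondrocyte genes and 5 of 6 leukocyte genes were called lower in Trem2-/- joints. Over all genes 5.72% were called in either direction at D7, and 0 passed the adjusted threshold in limma. The part of the cartilage content in the D0 difference was not tested.

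**Figure D4:**
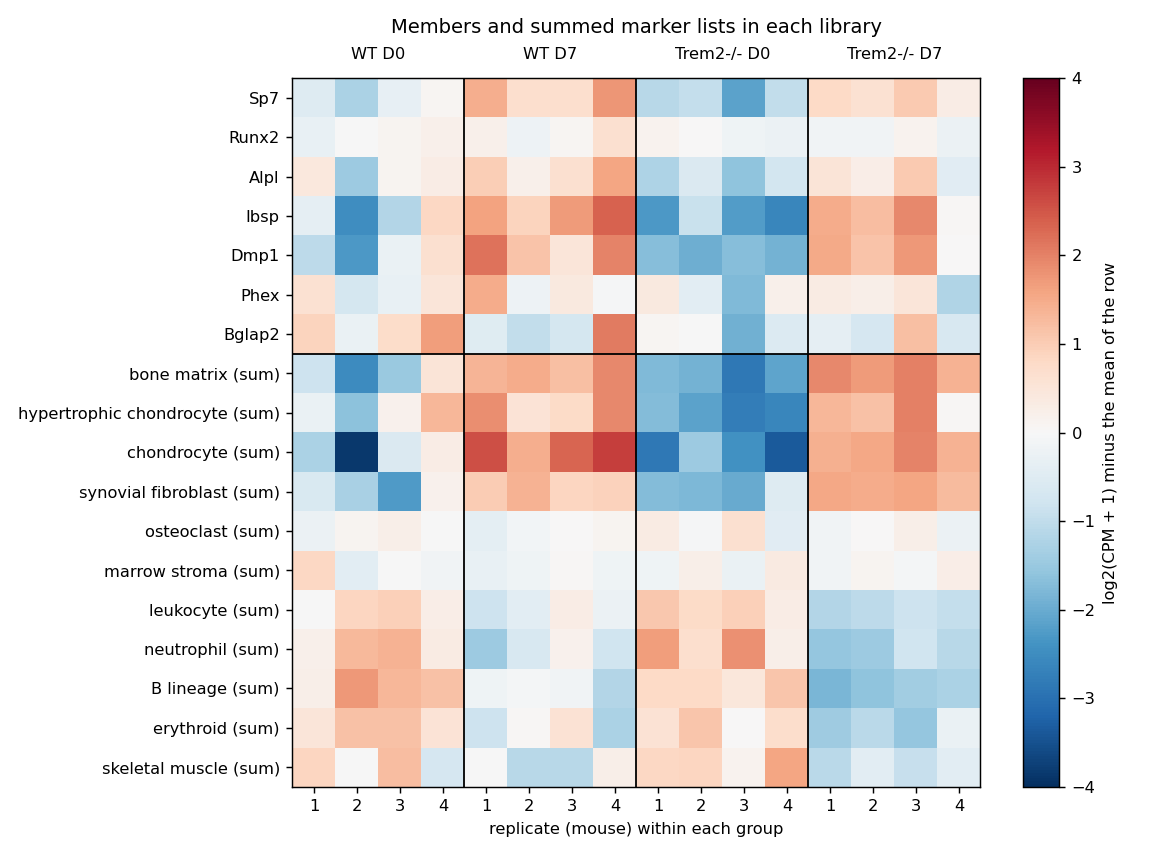
Log2(CPM + 1) of each gene, and of the summed CPM of each marker list, minus its mean over the 16 libraries, with columns for the 4 replicates of each group and red for higher levels. Ibsp, Dmp1 and the sums of bone matrix and chondrocyte genes are red at D7 and mostly blue at D0, leukocyte and neutrophil sums run the other way, and Runx2 is pale in all columns.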

How the data were processed

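Bulk RNA-seq libraries of 16 mouse knee joints, 4 per group, were analysed, and samples were grouped by genotype and injury in their labels. The authors used bcl2fastq, STAR with the mm10 genome, featureCounts for reads per gene and edgeR, and deposited TMM-normalized CPM (signal values). Versions, annotation and strand setting are not given in the sources used here. All values (100%) were whole multiples, within 0.1, of the value of 1 read, so reads were recovered. Fcgr1, listed 2 times with identical values, was counted once. The smallest chi-square per degree of freedom between replicates was 10.8, so no library was a repeat of another. Limits of 3 reads cover counting error only.

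The 13173 genes reaching 1 CPM in 4 or more of 16 libraries were compared as log2(CPM + 1) in R 4.3.3 with limma 3.58.1 (lmFit, then eBayes with a trend), using 4 groups as one factor. This scale understates changes of low genes. Calls need p under 0.05 and a change of over 25%, the study's rule, and Benjamini-Hochberg adjusted p-values stand beside them. Exact permutation tests were two-sided over 70 assignments, with a smallest p of 0.0286. The fit was tested on simulated data.

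The members and gene lists were chosen with earlier results of these data known. Named genes are the members, the copies of Bglap, the largest called rise and fall of each bone list, Trem2 and the 5 genes most like the mean of the members by each measure. Beyond this rule, Mmp13 was named after its values were seen, Panx3 as the one marker at 0, and Col3a1 as the largest called rise of the synovial fibroblast list. Other-cell lists (chondrocyte, hypertrophic chondrocyte, synovial fibroblast, osteoclast, marrow stroma, leukocyte, neutrophil, B lineage, erythroid, skeletal muscle) are given as counts and sums. Positions are from GENCODE M21 and promoters from RefSeq, with 6 of 6 listed members matched. Alternatives were pseudocounts of 0.1 and 5, no filter, a mean of at least 5 CPM, median-of-ratios and quantile scaling, only the groups compared, eBayes without trend, the replicate block, each library left out, voom and edgeR 4.0.16 (quasi-likelihood) on recovered reads, and a fold change over 1.5.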

Additional observations from a re-analysis of the deposited data

Results flagged for a closer look

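In 3 of 28 groups of 4 mice (7 genes in 4 groups), 1 mouse stood apart by its gap to the nearest other mouse, as a share of the group's range, above Dixon's 95% critical value. For independent and normally distributed values, chance gives about 1 in 20 such groups. The ratio was taken on CPM without a log, and the genes were correlated over the same mice. The 3 of 28 can therefore not be set against that rate. Ibsp in Trem2-/- D0 replicate 2 had a ratio of 0.874, at 211 CPM against 62.2 to 80.9 CPM in the other mice. Bglap2 in WT D7 replicate 4 had a ratio of 0.942, at 67.3 CPM against 7.08 to 10.6 CPM. Bglap2 in Trem2-/- D7 replicate 3 had a ratio of 0.906, at 36.0 CPM against 9.03 to 11.6 CPM.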

How the results depend on the processing

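The counts of members called in both injury comparisons and in the interaction stayed within 1.5 times the reported count under all alternatives run, with 3 to 4 members in WT and 4 in Trem2-/- joints when each library was left out. Between the genotypes at D7 the count of members called, 0, ranged from 0 to 1 when each library was left out. At D0 the count of 2 became 1 with the pseudocount at 5, 1 when eBayes used no trend, 1 with the replicate block, 4 with edgeR and 0 with only the groups compared, and ranged from 0 to 4 when each library was left out. The replicate block changed no other count of members past this limit. The labels do not say that a replicate number marks a shared origin. Over 24 pairs of libraries with the same number the correlation of deviations ran from -0.51 to 0.41, with 11 over 0.1, and between WT D0 and WT D7 it was 0.046, 0.20, 0.41 and 0.31, so in no comparison did every pair exceed 0.1 and the numbers were not used as a pairing. Without WT D7 replicate 4, Bglap2 had an interaction of 1.97 that was called (limma adjusted p = 0.689). The causes were not tested. Among the members, the SD between the 4 mice of a group reached 90.6% of the mean (Dmp1, WT D0).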
